A study of Mus musculus with 6 samples.

Results

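The interferon regulatory factor (IRF) family was followed through osteoclast formation in mouse bone marrow-derived macrophages (BMMs). The 8 genes Irf1, Irf2, Irf3, Irf4, Irf5, Irf7, Irf8 and Irf9 were chosen by their symbols in the deposited expression table, and all 8 were found among its 24940 genes. In all, 6 libraries were compared, 2 for each of 3 conditions. Cells grew for 3 days in M-CSF (30 ng/mL) throughout. The -R cells had no RANKL, the +R cells had RANKL (100 ng/mL), and the R+LE cells had the same RANKL and LE, the methanolic leaf extract of Abeliophyllum distichum (10 μg/mL). M-CSF is the growth factor that keeps macrophages alive, and RANKL is the cytokine that turns them into osteoclasts, the cells that resorb bone. According to the sample labels the marrow came from C57BL/6 mice aged 6 to 8 weeks, whereas the methods of the study describe male mice of the ICR strain, so the strain remained uncertain. No source stated whether the replicates were separate mice or separate cultures, so the p-values given here measure only the spread between these libraries, which may be technical.

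IRFs are transcription factors that share a DNA-binding domain with conserved tryptophans and recognise GAAA repeats in the control regions of interferon genes and interferon-stimulated genes. Irf3 and Irf7 are activated by the kinases TBK1 and IKKε and switch on type I interferon. Irf9 joins STAT2 in the complex that answers type I interferon, Irf1 drives much of the response to interferon-γ, and Irf2 binds the same sites as Irf1 and can oppose it. Irf5 acts behind Toll-like receptors on inflammatory cytokine genes. Irf4 and Irf8 bind DNA weakly alone and pair with partners such as PU.1. Irf8 is required for monocyte and dendritic cell development and is known as a repressor of osteoclast formation, whose loss from precursors precedes the rise of Nfatc1, the master regulator of osteoclasts.

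To set Irf8 and Irf7, which fell furthest, beside Irf2, which fell less, and Irf1, which did not pass the test, the 250 bases before the start of 4 members are given from RefSeq, on the GRCm38.p6 build, 5′ to 3′ on the strand of the gene. Starts in this reference matched those of the deposited table for all 8 members. Capitals mark matches to a GAS element, the STAT type site with the letters TTCNNNGAA, or to an ISRE, the IRF type site that reads GAAA, any 2 bases and GAAA again, searched on both strands.
Irf8 (chr8:120736108-120736357, plus strand): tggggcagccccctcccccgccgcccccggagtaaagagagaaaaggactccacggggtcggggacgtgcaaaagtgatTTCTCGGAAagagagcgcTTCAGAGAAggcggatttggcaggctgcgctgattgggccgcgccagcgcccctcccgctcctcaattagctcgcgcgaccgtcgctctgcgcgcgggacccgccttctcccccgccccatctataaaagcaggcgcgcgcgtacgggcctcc
Irf1 (chr11:53769764-53770013, plus strand): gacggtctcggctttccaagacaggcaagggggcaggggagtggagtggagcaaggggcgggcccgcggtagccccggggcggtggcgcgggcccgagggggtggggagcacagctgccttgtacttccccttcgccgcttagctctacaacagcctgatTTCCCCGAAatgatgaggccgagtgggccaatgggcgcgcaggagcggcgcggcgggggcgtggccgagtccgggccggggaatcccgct
Irf2 (chr8:46739495-46739744, plus strand): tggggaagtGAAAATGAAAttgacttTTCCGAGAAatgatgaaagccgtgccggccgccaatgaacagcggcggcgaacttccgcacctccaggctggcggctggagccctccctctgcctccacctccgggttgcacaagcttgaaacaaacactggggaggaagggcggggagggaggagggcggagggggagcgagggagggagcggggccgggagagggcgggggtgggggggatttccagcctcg
Irf7 (chr7:141266425-141266674, minus strand): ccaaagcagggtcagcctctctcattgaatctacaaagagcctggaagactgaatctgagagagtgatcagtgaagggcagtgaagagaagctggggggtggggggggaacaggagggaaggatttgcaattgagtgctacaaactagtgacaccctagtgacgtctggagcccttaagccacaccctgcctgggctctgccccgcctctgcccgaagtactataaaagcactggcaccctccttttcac
The Irf8 window held 2 GAS matches, TTCTCGGAA from 171 bases before the start and TTCAGAGAA from 153 bases before it, and they did not overlap. The Irf1 window held 1 GAS match, TTCCCCGAA, 90 bases before the start. In Irf2 an ISRE match, GAAAATGAAA, lay 241 bases before the start and a GAS match, TTCCGAGAA, 224 bases before it, and they did not overlap. The windows of the other 5 members had no match to either set of letters. Of 32817 promoter windows of this length, 7.01% held a GAS match and 2.97% an ISRE match, against 3 and 1 of the 8 members. A match of letters is a description of the sequence and not a measured binding site.

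The deposited RPKM values are reads scaled by transcript length and by the mapped reads of each library, which allows levels of different genes to be set side by side. The libraries held between 29390210 and 34846386 mapped reads, recovered from the steps between low values, and 3 reads equal 0.0861 to 0.102 RPKM for a 1 kb transcript. The Rn45s ribosomal RNA entry took 4.97% to 13.5% of the reads on genes, with the lowest shares in -R. The spread within pairs exceeded counting error: chi-square over genes averaged 27.0 for the -R pair, 12.5 for the +R pair and 28.0 for the R+LE pair. Differences were tested with limma on log2(RPKM + 0.5) for the 11595 genes that averaged 0.5 RPKM or more, with all 6 libraries in 1 fit. A change passed the test at an adjusted p (Benjamini-Hochberg over all 11595 genes) below 0.05, and was called when it also reached 2-fold. Of the 8 members, 7 passed the filter on low values and Irf4 did not. An exact two-sided permutation test of 2 libraries against 2 cannot give a p under 0.333, so the tests rest on the spread shared across genes. In bulk RNA, fewer cells of a type and less RNA per cell cannot be told apart.

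In +R, 5 of the 7 tested members were lower than in -R (Irf2, Irf5, Irf7, Irf8 and Irf9), 1 was higher (Irf3) and 1 did not pass the test (Irf1). Over all genes tested, 45.4% passed, 21.5% lower and 23.9% higher. No tested member overlapped between the 4 libraries, 5 being lower and 2 higher (Irf1 and Irf3), beside 75.2% of all genes (35% lower, 40.3% higher). The fall reached 2-fold in Irf5, Irf7, Irf8 and Irf9, against 8.92% of all genes called lower and 15.5% called in all. The median log2 fold change of the 7 members was -1.27, beside 0.05 for all genes tested. No tested member was called higher, against 6.58% of all genes.

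**Figure D1:**
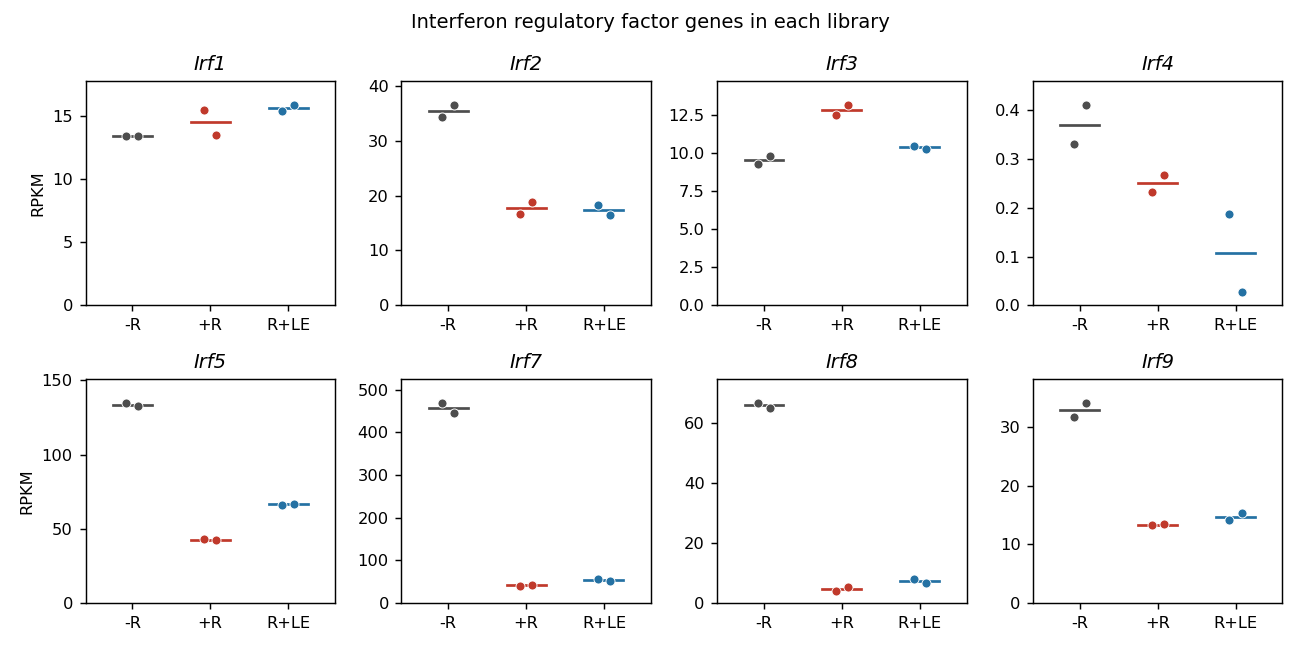
RPKM of the 8 members in the 6 libraries (vertical axes, linear from 0, a scale for each gene), with a point for each library and a line at the mean of each condition. Irf2, Irf5, Irf7, Irf8 and Irf9 stood highest in both -R libraries, Irf1 differed little, and Irf4 stayed at or below 0.411 RPKM.

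Irf8 lies on chromosome 8 of mm10 from 120736358 to 120756692. It stood at 66.9 and 65.2 RPKM in the 2 -R libraries, at 4.07 and 5.21 RPKM in +R, and at 7.88 and 6.76 RPKM in R+LE. The 3 conditions did not overlap, with -R far above the others and R+LE between. The level in +R was 7.02% of that in -R, a 14.2-fold lower mean, from 66.0 ± 1.19 to 4.64 ± 0.804 RPKM (SD, n = 2 each). On the log2 scale Irf8 fell by 3.70 (standard error 0.15, adjusted p = 4.12e-11 in limma), and only 28 of the 11595 genes tested had a lower log2 fold change. Between 354 and 453 reads lay on Irf8 in the +R libraries, so the gene was still detected after RANKL.

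Irf7, the amplifier of type I interferon production, lies on chromosome 7 from 141263183 to 141266424 and had the highest level of the family without RANKL. It was 469 and 446 RPKM in -R, 40.0 and 42.4 RPKM in +R, and 55.4 and 51.4 RPKM in R+LE. The mean in +R was 8.996% of that in -R, and Irf7 fell by 3.46 on the log2 scale (standard error 0.15, adjusted p = 7.94e-11 in limma). Of all genes tested, 40 had a lower log2 fold change.

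Irf5 maps to chromosome 6, from 29526625 to 29537320. Its levels were 135.0 and 133 RPKM in -R, 43.2 and 42.1 RPKM in +R, and 66.1 and 66.7 RPKM in R+LE. Replicates lay close together and the conditions were fully separate. It fell by 1.64 on the log2 scale with RANKL (limma, adjusted p = 1.70e-07, standard error 0.14), to 31.9% of its level in -R.

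Irf9, the DNA-binding part of the complex with STAT2, lies on chromosome 14 from 55604579 to 55610030. Its level was 31.8 and 34.2 RPKM in -R, 13.3 and 13.4 RPKM in +R, and 14.1 and 15.4 RPKM in R+LE. Both conditions with RANKL lay below both -R libraries, and Irf9 fell by 1.27 on the log2 scale with RANKL (limma, adjusted p = 1.80e-06, standard error 0.13).

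Irf2 maps to chromosome 8, from 46739745 to 46847458. It gave 34.3 and 36.5 RPKM in -R, 16.6 and 18.8 RPKM in +R, and 18.3 and 16.4 RPKM in R+LE. The +R and R+LE libraries overlapped and both lay below -R. With RANKL the gene fell by 0.98 on the log2 scale (standard error 0.14, adjusted p = 3.59e-05 in limma), just short of the 2-fold that a call needs.

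Irf3 moved the other way with RANKL. This gene maps to chromosome 7, from 44997648 to 45002848, and stood at 9.26 and 9.83 RPKM in -R, 12.5 and 13.1 RPKM in +R, and 10.5 and 10.3 RPKM in R+LE. On the log2 scale it rose by 0.41 with RANKL (limma, adjusted p = 0.0198, standard error 0.13). The rise did not pass with any 1 of the 4 libraries of this comparison left out, with adjusted p from 0.0565 to 0.135, and a log2 fold change of 0.37 without -R replicate 1, 0.45 without -R replicate 2, 0.44 without +R replicate 1 and 0.38 without +R replicate 2. Irf3 shares 8 exonic bases with Bcl2l12 on the opposite strand, and the counting did not use strand.

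Irf1 maps to chromosome 11, from 53770014 to 53777324. It gave 13.4 and 13.5 RPKM in -R, 15.5 and 13.5 RPKM in +R, and 15.4 and 15.9 RPKM in R+LE. The +R libraries spanned most of the range over all 6. The log2 fold change with RANKL was 0.10, with a 95% interval from -0.19 to 0.39 (adjusted p = 0.563 in limma), so a rise or fall of 2-fold lay outside the interval. It shares 100 exonic bases with Gm17334 on the opposite strand.

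Irf4, the close relative of Irf8 on chromosome 13 from 30749233 to 30766981, was near the lower end of what was measured. It was 0.330 and 0.411 RPKM in -R, 0.233 and 0.268 RPKM in +R, and 0.187 and 0.028 RPKM in R+LE, from 46 and 68, 34 and 39, and 28 and 4 reads. The 3 conditions did not overlap, but the 2 R+LE libraries differed from each other by more than the other pairs did. Tested without the filter, it had a log2 fold change of -0.21 in +R against -R (limma, adjusted p = 0.331) and -0.53 in R+LE against -R (adjusted p = 0.0556).

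The order of the family changed with RANKL. In -R it ran from Irf7 through Irf5, Irf8, Irf2, Irf9, Irf1 and Irf3 to Irf4, and no neighbours in this order overlapped between libraries. In +R, Irf5 and Irf7 shared the top and overlapped, at 42.1 to 43.2 and 40.0 to 42.4 RPKM, and Irf8 had dropped from the third to the seventh place, below Irf3. From the third place on, no neighbours overlapped in +R, although Irf1 and Irf9 came close, with the lowest Irf1 value at 13.5 RPKM and the highest Irf9 value at 13.4 RPKM. In R+LE the order was the same as in +R, and no neighbours overlapped. Among all tested genes, 92.9% had a lower mean RPKM than Irf8 in -R, while 34.9% did so after RANKL and 48.8% after RANKL with LE.

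**Figure D2:**
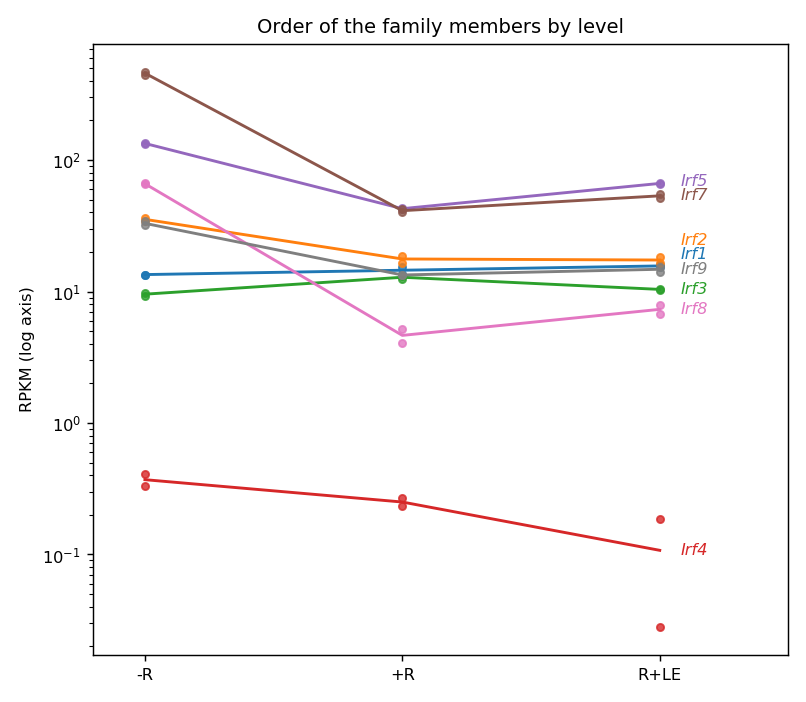
RPKM of each member (log axis) in the 3 conditions, with a point for each library and lines through the condition means. The line of Irf8 crosses those of Irf1, Irf2, Irf3 and Irf9 between -R and +R, and Irf5 and Irf7 meet in +R.

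Summed over the 8 members, the family stood at 749 ± 15.3 RPKM without RANKL (SD, n = 2 for each condition). It stood at 147 ± 2.49 RPKM with RANKL and at 185 ± 3.65 RPKM once LE was added. Irf7 made up 61.7% and 60.4% of that sum without RANKL. Its share was 27.5% and 28.5% in the +R libraries, close to the 29.5% and 28.1% of the R+LE libraries. Irf5 took 17.8% and 18.0% in -R, but 35.2% and 36.5% in R+LE, where it was the largest part. Irf8 gave 8.80% and 8.83% in -R and between 2.80% and 4.19% in the 4 libraries with RANKL. The balance between Irf8 and Irf1 turned over, with 4.98 and 4.84 times as much Irf8 as Irf1 in -R and a ratio of Irf8 to Irf1 between 0.263 and 0.511 with RANKL. The ratio of Irf2 to Irf1, which bind the same sites, went from 2.55 and 2.71 in -R to 1.07 and 1.39 with RANKL alone, while R+LE had 1.19 and 1.03.

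With LE added to RANKL, the summed family level was above that in +R and far below that in -R. Of the 7 tested members 2 passed the test, both higher in R+LE than in +R (Irf5 and Irf8), against 5.19% of all genes tested (6.86% passed lower and 12% in all), and 5 did not pass. Libraries of the 2 conditions did not overlap for Irf5, Irf7, Irf8 and Irf9, higher in R+LE, and for Irf3, lower, beside 49% of all genes (19.5% higher, 29.5% lower). None was called in either direction, beside 1.46% of all genes called higher and 1.78% called lower (3.23% in all). voom on the recovered reads also called 0, and 4 members had an unadjusted limma p under 0.05. With LE, Irf5 rose by 0.63 on the log2 scale (limma, adjusted p = 0.00723, standard error 0.14), 1.56 times its mean in +R. Irf8 rose by 0.61 (standard error 0.15, adjusted p = 0.0128 in limma), 1.58 times its mean in +R. For both genes each R+LE library lay above each +R library. The passes depended on the filter and on single libraries. Irf8 missed the threshold when all 18427 genes were tested with no filter (0.61 as before, adjusted p = 0.0949), and Irf5 and Irf8 both missed the threshold without +R replicate 1 (log2 fold change 0.65 and 0.45, adjusted p = 0.0532 and 0.195). Irf5 alone missed it without +R replicate 2 (0.62, adjusted p = 0.0716), and Irf8 alone missed it without R+LE replicate 1 (0.51, adjusted p = 0.0545).

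The other members stayed within smaller limits. The log2 fold change of Irf7 with LE was 0.37, with a 95% interval from 0.06 to 0.68 and adjusted p = 0.130 in limma, and it passed when the libraries were centred on their medians (0.42, adjusted p = 0.0352) or quantile normalized (0.43, adjusted p = 0.0137). For Irf3 it was -0.29, with an interval from -0.58 to -0.01 (adjusted p = 0.193). Irf9 had 0.14, with an interval from -0.15 to 0.43, and Irf1 had 0.11, with an interval from -0.18 to 0.40. Irf2 had -0.03, with an interval from -0.32 to 0.27, and its sign turned under both of these scalings and without +R replicate 2 or R+LE replicate 2.

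**Figure D3:**
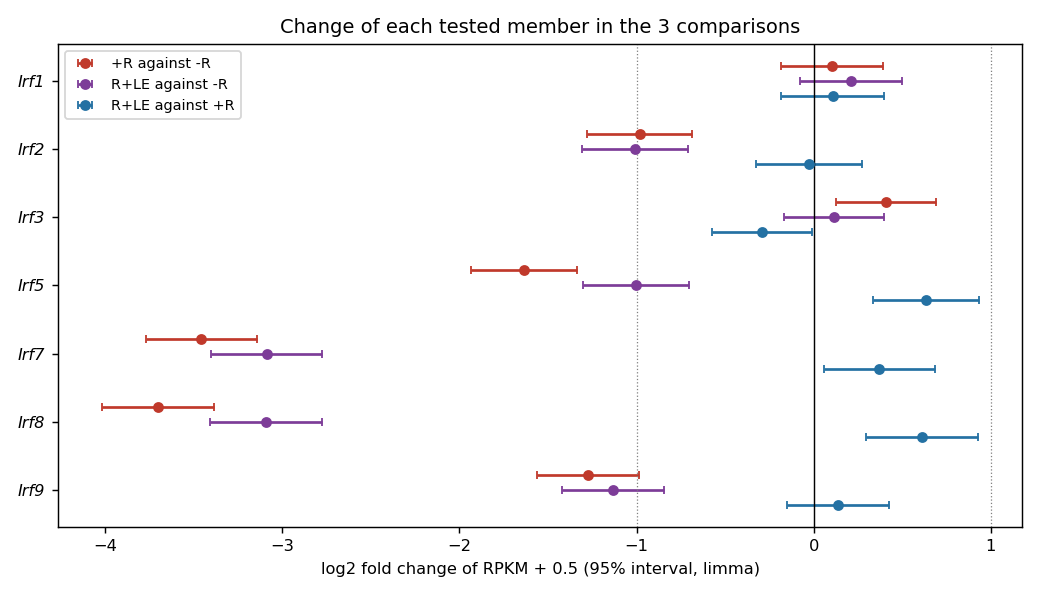
Log2 fold change of RPKM + 0.5 (horizontal axis) for the 7 tested members in the 3 comparisons, with 95% intervals from limma and dotted lines at 2-fold. Irf7 and Irf8 lie below -3 in both comparisons with -R, while all intervals for R+LE against +R lie between -1 and 1.

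Cells given RANKL and LE together still had far less Irf7 and Irf8 RNA than cells without RANKL, and less RNA of Irf2, Irf5 and Irf9. In R+LE against -R, Irf2, Irf5, Irf7, Irf8 and Irf9 were lower, and all 5 were called, against 6.36% of all genes tested (10.3% called in all). At the adjusted p alone, 19% of all genes passed lower and 15.3% higher, 34.3% in all. The libraries overlapped for none of the 7, with Irf1 and Irf3 higher, beside 65.5% of all genes without overlap (31.2% higher, 34.3% lower). No member was called higher, beside 3.92% of all genes. Irf8 fell by 3.09 (adjusted p = 6.98e-10 in limma) and Irf7 also by 3.09 (adjusted p = 6.72e-10), to 11.1% and 11.7% of their levels in -R. Irf5 fell by 1.005, Irf2 by 1.01 and Irf9 by 1.13 on the log2 scale (adjusted p from 9.33e-06 to 4.78e-05 in limma), to 49.6%, 49.1% and 44.7% of -R. The calls for Irf5 and Irf2 lay at the edge of 2-fold, and with a pseudocount of 1 or with other scalings 3 of the 5 remained. Irf1 and Irf3 did not pass, with log2 fold changes of 0.21 (interval from -0.08 to 0.50) and 0.12 (interval from -0.17 to 0.40). The comparisons share libraries, so the values in R+LE against +R and against -R are not independent.

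The genes around Irf8 were taken from lists written for this work. These lists and those below were written with earlier results of these data known. Counts within them are descriptions and no independent support. Prdm1 encodes Blimp1, which represses Irf8 in osteoclast precursors, and Dnmt3a encodes a DNA methyltransferase reported to silence Irf8. Prdm1 was 0.995 and 1.25 RPKM in -R, 12.7 and 11.9 RPKM in +R, and 2.51 and 2.26 RPKM in R+LE. Dnmt3a was 11.9 and 12.97 RPKM in -R, 45.7 and 43.2 RPKM in +R, and 19.5 and 19.9 RPKM in R+LE. Both were highest in +R, and in R+LE stood nearer to -R than to +R while still above it, with log2 fold changes of 0.83 for Prdm1 and 0.65 for Dnmt3a in R+LE against -R (limma, adjusted p = 0.000566 and 0.00163). On the log2 scale Prdm1 rose by 2.99 with RANKL and fell by 2.16 with LE (adjusted p = 5.23e-10 and 3.84e-07 in limma), while Dnmt3a rose by 1.80 and fell by 1.15 (adjusted p = 3.90e-08 and 3.73e-05).

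Bcl6, which encodes a fellow repressor of osteoclast formation, moved in the directions of Irf8. Bcl6 was 23.4 and 24.3 RPKM in -R, 7.97 and 8.04 RPKM in +R, and 11.6 and 11.4 RPKM in R+LE. It fell by 1.52 on the log2 scale with RANKL (limma, adjusted p = 1.88e-07), and with LE it rose by 0.50 (adjusted p = 0.0206). Spi1, which encodes the Irf8 partner PU.1, was 207 and 187 RPKM in -R, 260.3 and 253 RPKM in +R, and 211 and 194 RPKM in R+LE. Its log2 fold change was 0.38 in +R against -R (limma, adjusted p = 0.0636) and -0.34 with LE (adjusted p = 0.214), so the ratio of Spi1 to Irf8 went from 3.10 and 2.87 in -R to 64.0 and 48.5 with RANKL alone, while R+LE had 26.8 and 28.7. Set against the osteoclast regulator Nfatc1, Irf8 was 11.9 and 11.6 times as abundant in -R, while the ratio of Irf8 to Nfatc1 was 0.0796 and 0.0994 with RANKL alone and 0.381 and 0.329 with LE added.

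**Figure D4:**
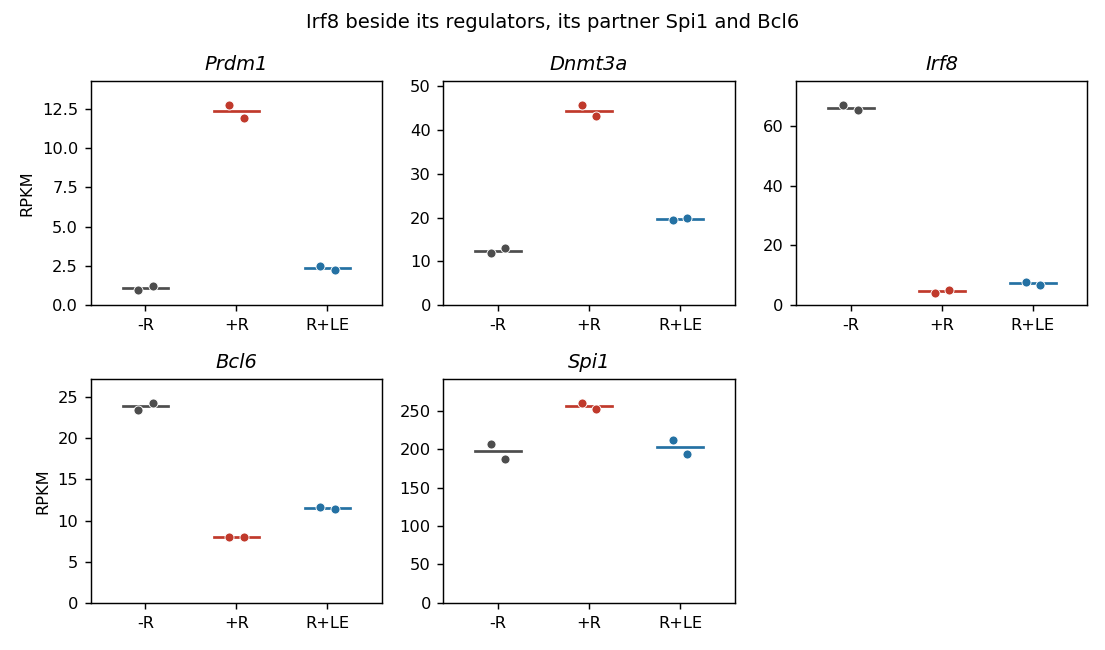
RPKM (vertical axes, linear from 0) of Irf8, of Prdm1 and Dnmt3a, of Bcl6 and of Spi1 in the 6 libraries, with a line at each condition mean. Prdm1 and Dnmt3a peak in +R, where Irf8 and Bcl6 are lowest, and Spi1 stays between 187 and 260.3 RPKM.

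The genes whose pattern over the 6 libraries was most like that of Irf8 were Evl, Gpr157, Gas6, Hpgds and Bcl2l1, with Pearson correlations of log2(RPKM + 0.5) from 0.9990 to 0.9996 among 2089 genes with an SD of at least 0.5. With 3 conditions that differ this much, such values describe a shared order of levels and carry no test. Gas6 encodes a ligand of the TAM receptors, Hpgds a prostaglandin D synthase and Bcl2l1 the survival protein BCL-XL. Their means in -R, +R and R+LE were 26.4, 2.92 and 4.30 RPKM for Gas6, 14.2, 2.21 and 2.97 RPKM for Hpgds, and 49.3, 5.39 and 7.76 RPKM for Bcl2l1.

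Upstream of the family, interferon genes themselves were almost silent. Ifnb1 had no read in any library, which allows up to 0.133 RPKM at 3 reads in the library of lowest depth, and 7 of 8 interferon genes had at most 3 reads in every library. The exception was Ifnk, with 0 to 8 reads. Of 12 genes for interferon receptors, JAK kinases, STAT factors and their SOCS inhibitors, 5 fell and 3 rose with RANKL, beside 21.5% and 23.9% of all genes, so that the share that rose was near that of all genes. The median log2 fold change was -0.09. Stat2, a partner of Irf9, was 24.1 and 28.2 RPKM in -R, 5.00 and 5.23 RPKM in +R, and 5.99 and 8.49 RPKM in R+LE. It fell by 2.24 with RANKL (adjusted p = 2.74e-08 in limma). Socs3, an inhibitor of cytokine signalling, and Ifngr1, a chain of the interferon-γ receptor, rose by 1.66 and 1.19 on the log2 scale. With LE 0 of these 12 passed in limma, beside 12% of all genes, while 1 had an unadjusted p under 0.05. With voom on the recovered reads 1 passed.

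Among 20 sensors, adaptors and kinases that activate IRFs, 10 fell and 2 rose with RANKL, beside 21.5% and 23.9% of all genes. The median log2 fold change was -0.39. Dhx58, a cytosolic RNA sensor, fell by 1.63, Ikbke, the gene of IKKε, by 1.58, and Tlr7, a receptor for RNA, by 1.28 on the log2 scale. Tank, an adaptor of TBK1 and IKKε, rose by 1.30 and Traf3 by 1.17. Tbk1 fell by 0.40 (adjusted p = 0.0258 in limma), which is less than 2-fold. With LE, 4 of the 20 rose and 2 fell, beside 5.19% and 6.86% of all genes, so that the share that fell was near that of all genes. The log2 fold changes were 0.79 for Ikbke, 0.61 for Tlr4, 0.57 for Tlr7, 0.49 for Tlr3, -0.56 for Tank and -0.55 for Tlr9. Ikbke was 22.9 and 20.5 RPKM in -R, 6.91 and 6.98 RPKM in +R, and 11.1 and 13.8 RPKM in R+LE, so that its 3 conditions did not overlap.

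Of 10 partners and cofactors 8 were tested, and 3 of them fell with RANKL and none rose, beside 21.5% and 23.9% of all genes. Irf2bpl, named for its likeness to the binding proteins of Irf2, fell by 1.61 on the log2 scale (adjusted p = 1.91e-07 in limma), from 26.1 and 28.5 RPKM in -R to 9.04 and 8.21 RPKM in +R. The others that fell were Batf2 and Batf, AP-1 type partners of Irf4 and Irf8, by 0.97 and 0.56. With LE 0 of the 8 passed in limma, beside 12% of all genes, or with voom on the recovered reads. An unadjusted p under 0.05 was found for 0, and the log2 fold changes of the 8 lay between -0.34 and 0.02.

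Downstream, the ISRE targets fell together with RANKL. All 20 interferon-stimulated genes of this list passed lower, against 21.5% of all genes, and 19 were called, with a median log2 fold change of -1.94. The uncalled gene was Oas2 (-0.87), named here because it was the exception. The largest falls were in Ifit3 (-3.10), Ifit3b (-2.94), Mx1 (-2.75) and Oasl2 (-2.48), from antiviral gene families between whose members reads may have been divided. Ifit3 was 22.8 and 24.0 RPKM in -R, 2.14 and 2.43 RPKM in +R, and 2.89 and 3.56 RPKM in R+LE. With LE 1 of the 20 passed, near the 5.19% of all genes that passed higher. It was Ifit1, which rose by 0.59 on the log2 scale (limma, adjusted p = 0.0269), and the median of the 20 was 0.22. In R+LE against -R, 19 of the 20 were lower and 18 were called, beside 19% and 6.36% of all genes.

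Of 12 tested targets tied to interferon-γ and Irf1, 6 rose and 3 fell with RANKL, beside 23.9% and 21.5% of all genes, so that the share that fell was near that of all genes. The median log2 fold change was 0.20. Cxcl10, a chemokine, rose by 2.34 and the guanylate-binding proteins Gbp7 and Gbp3 by 1.85 and 1.06, while Nlrc5, the activator of MHC class I genes, fell by 1.88. Cxcl10 was 6.07 and 5.09 RPKM in -R, 31.1 and 29.2 RPKM in +R, and 44.9 and 45.5 RPKM in R+LE. With LE 6 of the 12 fell and 1 rose, beside 6.86% and 5.19% of all genes, and none reached 2-fold. The share that rose was near that of all genes. Tap2, which carries peptides to MHC class I, fell by 0.83, Gbp7 by 0.76 and Gbp3 by 0.59, and Cxcl10 rose by 0.58 (adjusted p from 0.00147 to 0.0234 in limma).

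Of 6 tested targets tied to Irf8 in myeloid cells, 5 fell with RANKL and none rose, beside 21.5% and 23.9% of all genes. Of the 5, 3 were called lower, beside 8.92% of all genes. Slc11a1, the phagosomal metal transporter, was 228 and 221 RPKM in -R, 29.1 and 31.4 RPKM in +R, and 141 and 109 RPKM in R+LE. It fell by 2.87 with RANKL and rose by 2.02 with LE (adjusted p = 1.39e-09 and 1.03e-06 in limma). Ctsc, a lysosomal protease, and Cybb, the NADPH oxidase subunit, fell by 1.33 and 1.23 with RANKL. Under LE they had log2 fold changes of 0.16 and 0.22 (adjusted p = 0.637 and 0.538). Klf4, a myeloid transcription factor, had a log2 fold change of -0.03 with RANKL (adjusted p = 0.861) and rose by 0.89 with LE (adjusted p = 0.000563). The list held Il12b with at most 2 reads in any library. Of 4 tested genes of alternative macrophage activation, a program tied to Irf4, Arg1 and Mrc1 fell with RANKL by 3.66 and 1.35 and Ccl22 rose by 0.68, while Kdm6b had 0.40 (adjusted p = 0.0763 in limma). With LE, Arg1 rose by 1.09 (limma, adjusted p = 0.0061) and was called, Mrc1 fell by 0.97 (adjusted p = 0.00191), and Ccl22 and Kdm6b had log2 fold changes of 0.04 and -0.53 (adjusted p = 0.954 and 0.0642). Arg1 was 11.6 and 12.0 RPKM in -R, 0.488 and 0.466 RPKM in +R, and 2.40 and 0.985 RPKM in R+LE, where the pair lay far apart.

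**Figure D5:**
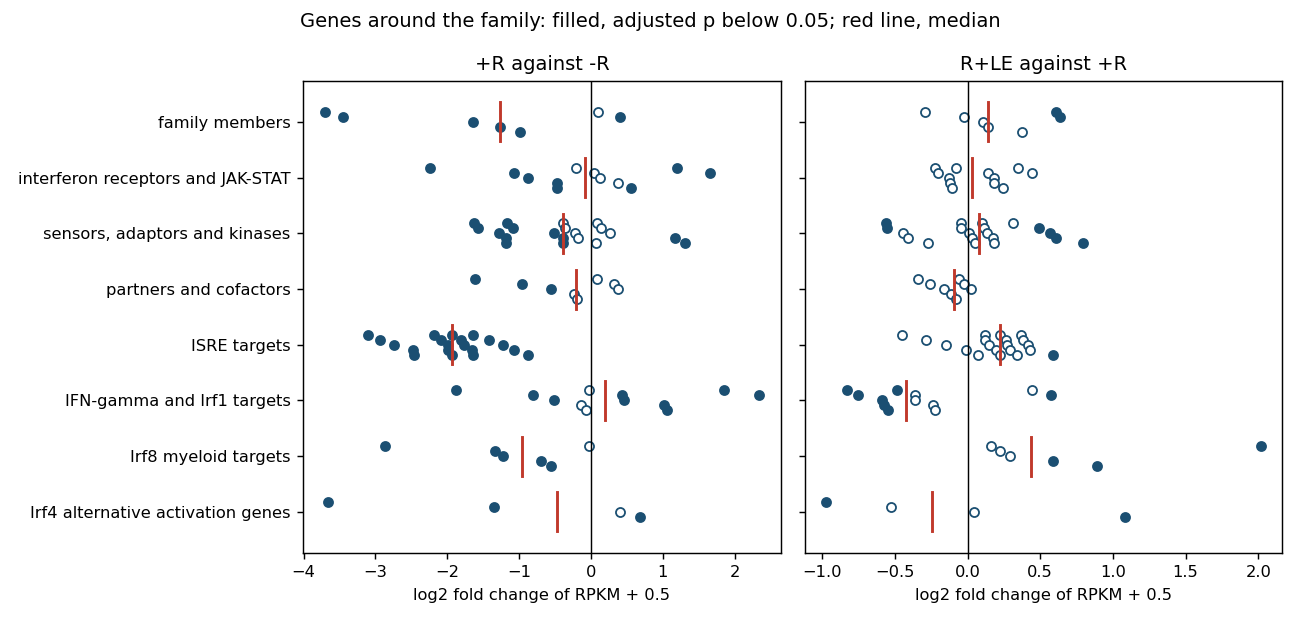
Log2 fold change of RPKM + 0.5 (horizontal axes, different scales) of the tested members and of the genes of 7 lists, in +R against -R on the left and R+LE against +R on the right. Filled points passed an adjusted p below 0.05, open points did not, and the red line is the median. All ISRE targets lie left of 0 with RANKL.

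Markers of other cell types moved beside the family. Of 6 inflammatory monocyte markers 4 were tested and all 4 fell with RANKL, and their summed level was 133 to 151 RPKM in -R, 9.68 to 10.2 in +R and 6.29 to 7.60 in R+LE. Among these 4, Ly6c2 and F13a1 reached the filter only through -R, where their means were 39.4 and 5.82 RPKM. With RANKL alone they had 0.12 and 0.27 RPKM, and with LE added 0.24 and 0.20 RPKM. For them the filter itself favoured a fall from -R. Plac8 came close to this, at 51.1 RPKM without RANKL, 0.142 RPKM with it and 0.677 RPKM once LE was added. Ccr2 stayed above the filter, with a mean of 9.38 RPKM under RANKL alone. Of 6 neutrophil markers 2 were tested and fell with RANKL, beside 21.5% of all genes. The 6 summed to 15.3 to 17.0 RPKM in -R, 0.660 to 0.816 in +R and 0.564 to 2.52 in R+LE. Of the 2, S100a9 also reached the filter only through -R, with means of 5.22 RPKM there and 0 in +R and R+LE. The 5 B cell markers, none of which reached the filter, summed to 1.57 to 1.96 RPKM in -R and at most 0.124 RPKM in the other libraries, with Pax5 at no more than 1 read. The 6 T and NK cell markers summed to at most 0.947 RPKM in any library, and Cd3e had 0 reads in all 6. Of 8 dendritic cell markers 2 were tested. With RANKL, Itgax rose and Bst2, also an ISRE target, fell, beside 23.9% and 21.5% of all genes. The list summed to 137 to 149 RPKM in -R, 39.0 to 43.6 in +R and 34.0 to 35.6 in R+LE. Most of that sum was Bst2, at 133 and 144 RPKM in -R, 35.6 and 33.5 RPKM in +R, and 31.6 and 30.6 RPKM in R+LE. The fall of the sum was thus mainly that of 1 gene, while the mean of Itgax was 2.39 RPKM in -R and 5.53 RPKM in +R. The 6 markers under the filter did not move together, since Siglech was 0.715 and 1.10 RPKM in -R and 0.027 RPKM in both +R libraries, whereas Zbtb46 was 0.085 and 0.086 RPKM in -R, 0.714 and 0.941 RPKM in +R, and 0.079 and 0.213 RPKM in R+LE. Flt3, Xcr1, Clec9a and Cd209a, the other untested ones, stood at or below 0.428 RPKM in every library. The part of these cells in the changes of the family was not tested.

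The cultures carried the markers of macrophages and, with RANKL, of osteoclasts. All 11 osteoclast genes rose with RANKL and all 11 fell with LE, beside 23.9% and 6.86% of all genes. The median log2 fold changes of the 11 were 4.87 and -2.11. Of these genes, Calcr, Oscar, Ocstamp, Itgb3 and Ctsk reached the filter only through the libraries with RANKL. Calcr and Oscar were at 0 RPKM in -R, and the means of Ocstamp, Itgb3 and Ctsk there were 0.16, 0.19 and 0.199 RPKM. For them the filter itself favoured a rise over -R. Of 8 macrophage markers 7 fell with RANKL and 4 were called lower, beside 21.5% and 8.92% of all genes. With LE 2 of the 8 rose, beside 5.19% of all genes. The summed level of the 8 markers was 6732 to 7320 RPKM in -R, 2692 to 3455 in +R and 3764 to 4206 in R+LE, most of it Lyz2. Stromal and osteoblast markers summed to 14.4 to 15.9 RPKM in -R, 9.78 to 13.8 in +R and 7.90 to 9.43 in R+LE. Erythroid markers stayed at or below 0.124 RPKM in sum.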

How the data were processed

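The authors prepared total RNA and sequenced 6 libraries, whose reads the methods of the study call mRNA-Seq. They counted reads on exons with HOMER on mm10 without regard to strand and with 1 transcript for each gene. The values were deposited as RPKM, under column titles that say FPKM. The aligner is TopHat in the methods of the study, while the submitters' processing notes name HISAT2, HOMER and DESeq2, with no versions. Groups followed the sample titles. The members and all gene lists were chosen with earlier results of these data known, and genes were named by size of change within a list.

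All 26 symbols that a spreadsheet had turned into dates were restored from transcript identifiers. Reads were recovered from RPKM and transcript length, and all values checked lay within 0.1 reads of a whole number. limma 3.58.1 (R 4.3.3) fitted log2(RPKM + 0.5) with a variance trend. Tables and figures used Python 3.11.15, pandas 2.3.3 and matplotlib 3.10.9. The fit was tested on simulated data. Limits at 3 reads cover counting error only. Alternatives were other pseudocounts, filters and scalings, no trend, 2 groups only, Rn45s left out of the depth, a replicate block, voom on recovered reads and each library left out. A few genes of the lists are not reported here by name.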

Additional observations from a re-analysis of the deposited data

How the results depend on the processing

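The falls of Irf2, Irf5, Irf7, Irf8 and Irf9 with RANKL and their lower levels in R+LE than in -R passed the test under all 17 alternatives run. The number of members called lower in R+LE against -R was 5, and it was 3 with a pseudocount of 1, with centring on the median, with quantile normalization and with Rn45s left out of the depth, and 4 to 5 without single libraries. The number called lower in +R against -R was 4 to 5. Members passing higher in +R against -R numbered 1, and 0 to 1 without single libraries. Members passing higher in R+LE against +R numbered 2, and it was 1 with no filter, where Irf8 had the same log2 fold change of 0.61 and an adjusted p of 0.0949, 3 with centring on the median and with quantile normalization, where Irf7 also passed, and 0 to 2 without single libraries. The log2 fold change of Irf2 in R+LE against +R was -0.03, and it turned to 0.0257 with centring on the median and 0.0152 with quantile normalization, and ran from -0.112 to 0.0609 without single libraries, above 0 without +R replicate 2 or R+LE replicate 2. The causes were not tested. With 1 library left out its group had 1 library, assumed to vary like the others.

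The replicate numbers were not taken as pairing the libraries, since deviations of the same number correlated at -0.05 (-R and +R), 0.11 (-R and R+LE) and 0.25 (+R and R+LE). With the replicate number as a block, 4 members were called lower in +R against -R and 5 in R+LE against -R, 2 passed higher in R+LE against +R, and the block changed no call of a member. Few or no reads lay on the interferon genes, most of them at 3 reads or fewer, and depth sets only how low a level could be seen. The values of Irf4 rested on 4 to 68 reads.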
